A study of Mus musculus with 12 samples.

Results

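Transcripts of 52 genes for ribosome biogenesis, MYC and its partners, and RNA polymerase I were followed in mouse Th9 cells that received EpA, fatostatin, both, or neither. The genes were listed by symbol, with earlier results of these data known, and all 52 were found among the 32051 genes measured. They comprise the MYC network (*Myc*, *Max*, *Mxd4*, and *Mxi1*), 6 genes of RNA polymerase I transcription, 5 nucleolar factors, 3 box C/D and 4 box H/ACA snoRNP proteins, 9 proteins of the small-subunit processome, 6 late 40S factors, and 15 factors of 60S assembly. Naive CD4+ T cells from spleens of C57BL/6J mice had been stimulated with plate-bound anti-CD3 and 1 µg/mL soluble anti-CD28 and polarized with TGF-β at 1 ng/mL and IL-4 at 10 ng/mL, with IL-12 and IFN-γ blocked during the first days. The control Th9 cells received DMSO, the vehicle. EpA-Th9 cells received 10 µM EpA, a natural cyclic lipopeptide. The other 2 groups received 5 µM fatostatin, an inhibitor of SREBP activation, alone or with 10 µM EpA. Each group had 3 replicates, sampled on day 4. The labels do not say whether the replicates came from separate mice or cultures. The p-values therefore measure only the spread between the 3 samples within each group. The cells were polarized in vitro, and the sequencing read the whole culture. In such bulk RNA, fewer cells of a type and less RNA per cell cannot be told apart.

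Ribosome assembly starts in the nucleolus, where RNA polymerase I transcribes the rDNA into a long precursor. Small nucleolar ribonucleoproteins (snoRNPs) guide methylation (box C/D) and pseudouridylation (box H/ACA) of this precursor, the small-subunit processome cleaves and folds its 5′ part, and separate sets of factors carry the 40S and 60S subunits to the cytoplasm. MYC, a transcription factor that rises when T cells are activated, pairs with MAX on E-boxes with the sequence CACGTG and is known to drive nucleolar genes. MXD4 and MXI1 pair with the same MAX and repress transcription at such sites. The question was whether *Myc* and its partners moved with the nucleolar genes.

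The values are FPKM, the reads of a gene scaled by its exon length and by the size of the library, so that levels can be compared between genes. They are shares of a library and do not measure total RNA per cell. Each library held 36019739 to 43656670 reads on genes, and every one of the 52 genes had at least 1095 reads in each library. All 52 passed the filter of a mean of 0.1 FPKM and were tested by limma on log2(FPKM + 0.1) together with all 13733 genes that passed. A gene was called at a Benjamini-Hochberg adjusted p below 0.05 over the 13733 genes. The 9 T cell markers summed to 838 to 883 FPKM per library, with *Cd4* at 78.1 to 92.2 FPKM. In EpA-Th9 cells they summed to 842.5 to 848 FPKM, below the 870.3 to 879 FPKM of control Th9 cells, and 5 of the 9 were called lower and 2 higher, against 13.1% and 14.3% of all genes tested. The 12 markers of CD8 T cells, B cells, myeloid cells, and NK cells summed to 8.92 to 12.1 FPKM, of which *Cd8b1* made up 6.40 to 8.61 FPKM. *Ncr1*, which marks NK cells, was listed at 0 in 6 of the 12 libraries, *Klrb1c* in 3, and the myeloid markers *Adgre1*, *Csf1r*, and *Lyz2* in 2, 1, and 1. These 12 summed to 10.1 to 11.4 FPKM in control Th9 and 9.11 to 10.1 FPKM in EpA-Th9 cells. Of the 6 that passed the filter, 1 was called higher and 2 lower with EpA, with log2 fold changes from -1.08 for *Cd8a* to 1.07 for *Lyz2*, which had at most 1.94 and 0.250 FPKM in any library. *Cd8a* stood at -1.70 with both compounds against DMSO (1 of the 6 called higher and 1 lower) and at -1.46 with both against fatostatin (0 higher and 1 lower). The part of either set of markers in the results was not tested.

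Most of the nucleolar genes were slightly higher in cells that received EpA. Of the 52 genes, 44 were called higher in EpA-Th9 than in control Th9 cells and 2 lower, against 14.3% called higher and 13.1% called lower among all genes tested. The median log2 fold change of the 52 genes was 0.21, which corresponds to 15.9% more, and that of all genes tested was 0.002. The 3 EpA libraries and the 3 DMSO libraries did not overlap for 47 of the 52 genes, against 42.4% of all genes. No member of the list reached 1.5-fold, a size that 3.38% of all genes reached with an adjusted p below 0.05. The 48 genes outside the MYC network held 2536 to 2580.1 FPKM in sum in the DMSO libraries and 3043 to 3071 FPKM in the EpA libraries. Their share of all FPKM was 0.892% to 0.903% in the former and 1.07% to 1.08% in the latter, and *Npm1* alone contributed about 777 and 969 FPKM to these sums. The geometric mean of the 48 genes, in which each gene counts alike, was 30.5 to 30.8 FPKM in the DMSO libraries and 35.2 to 35.7 FPKM in the EpA libraries.

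**Figure D1:**
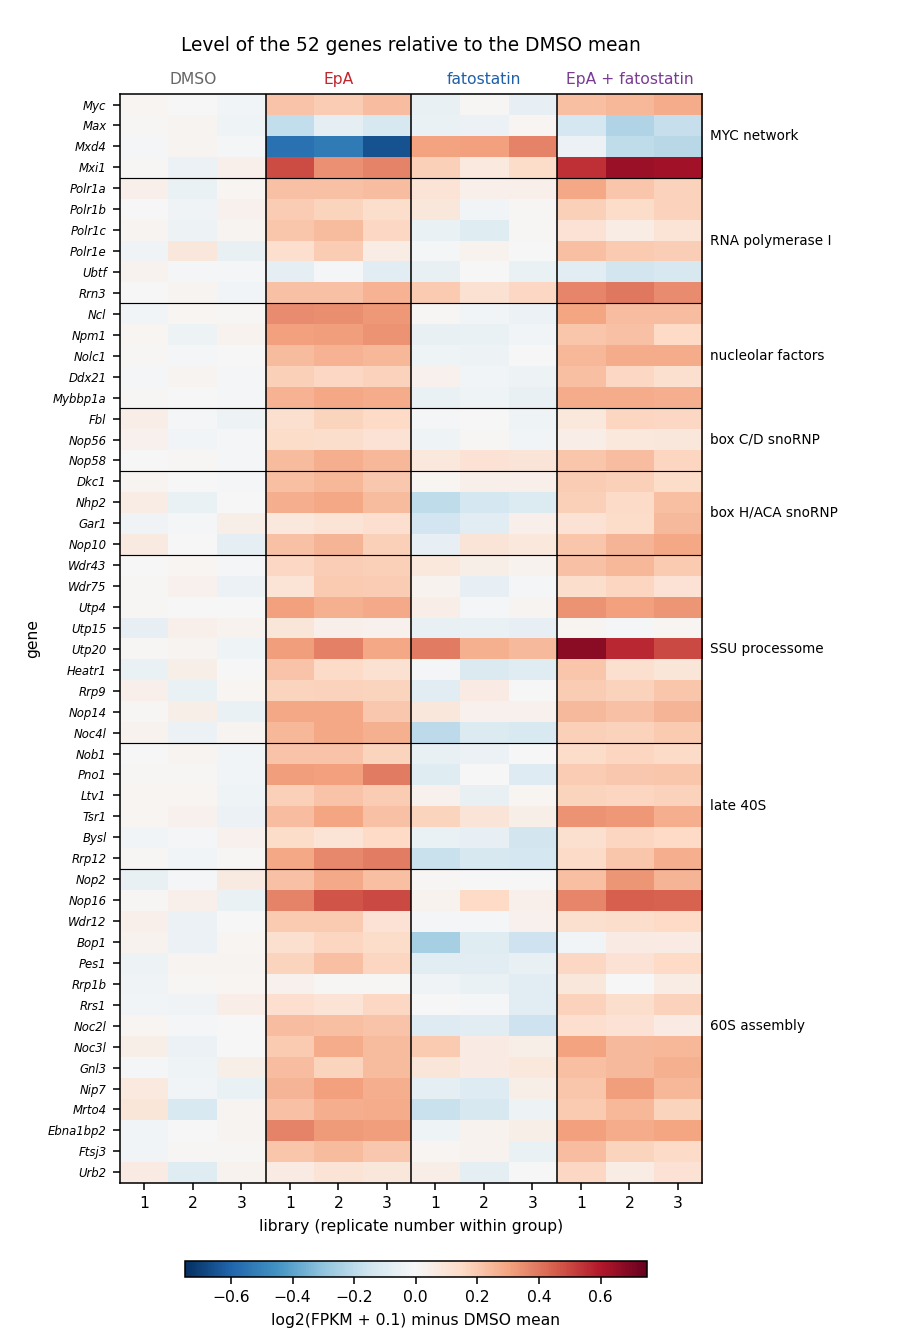
Heat map of the 52 genes (rows, grouped by role) in the 12 libraries (columns, 3 per group), as log2(FPKM + 0.1) minus the mean of the 3 DMSO libraries. Most rows are red in both groups with EpA (44 genes called higher in EpA against DMSO) and near white with fatostatin alone, while *Mxd4* is blue with EpA and red with fatostatin alone.

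The 4 genes of the MYC network went different ways. *Myc* (ENSMUSG00000022346, chromosome 15 from 61985391 to 61990374 on the plus strand of GRCm38) had 45.3, 44.96, and 44.2 FPKM in the 3 DMSO libraries and 52.1, 51.1, and 52.6 FPKM in the 3 EpA libraries. With fatostatin it had 43.1, 45.1, and 43.01 FPKM, and with both compounds 52.4, 53.2, and 54.5 FPKM. The libraries with EpA thus all lay above those without it. *Myc* rose in EpA-Th9 cells, with a log2 fold change of 0.21 (limma adjusted p = 5.77e-05, SE 0.0236), which is 1.16-fold. *Max* (ENSMUSG00000059436, chromosome 12 from 76937269 to 76962201 on the minus strand), the partner that MYC and its antagonists share, had 21.6, 21.7, and 20.9 FPKM with DMSO, 18.8, 20.4, and 19.7 FPKM with EpA, 20.7, 20.8, and 21.6 FPKM with fatostatin, and 19.5, 18.3, and 18.96 FPKM with both. It fell with EpA by a log2 fold change of -0.13 (limma adjusted p = 0.0174, SE 0.0344). This call was lost without DMSO replicate 1, DMSO replicate 2, or EpA replicate 1 (limma adjusted p = 0.0537, 0.0596, and 0.0706).

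The antagonists *Mxd4* and *Mxi1* moved in opposite directions with EpA. *Mxd4* (ENSMUSG00000037235, chromosome 5 from 34173883 to 34187720 on the minus strand) had 5.88, 6.00, and 5.84 FPKM with DMSO and 3.98, 4.05, and 3.72 FPKM with EpA, a log2 fold change of -0.58 (limma adjusted p = 8.37e-06, SE 0.0501). With fatostatin alone it had 7.29, 7.32, and 7.68 FPKM and with both compounds 5.72, 5.17, and 5.10 FPKM. Its 4 groups did not overlap, in the order EpA, both, DMSO, and fatostatin from low to high. *Mxi1* (ENSMUSG00000025025, chromosome 19 from 53310518 to 53375810 on the plus strand) had 6.51, 6.29, and 6.66 FPKM with DMSO and 9.16, 8.25, and 8.42 FPKM with EpA, a log2 fold change of 0.40 (limma adjusted p = 8.45e-05, SE 0.0471). It had 7.35, 6.83, and 7.16 FPKM with fatostatin and 9.51, 10.2, and 10.1 FPKM with both, so that its groups did not overlap either, in the order DMSO, fatostatin, EpA, and both. The sum of both antagonists was therefore nearly the same with DMSO (12.3 to 12.5 FPKM) and with EpA (12.1 to 13.1 FPKM), and higher with fatostatin (14.2 to 14.8 FPKM) and with both compounds (15.2 to 15.4 FPKM). The ratio of *Mxd4* to *Mxi1* was 0.877 to 0.953 with DMSO, 0.435 to 0.491 with EpA, 0.992 to 1.07 with fatostatin, and 0.505 to 0.602 with both. The ratio of *Myc* to *Mxd4* was 7.50 to 7.70 with DMSO, 12.6 to 14.1 with EpA, 5.60 to 6.17 with fatostatin, and 9.15 to 10.7 with both. The ratio of *Myc* to the sum of *Mxd4* and *Mxi1*, without *Mxd3*, was 3.54 to 3.66 with DMSO and 3.97 to 4.33 with EpA. It was 2.899 to 3.19 with fatostatin and 3.44 to 3.58 with both. With both compounds this ratio thus overlapped the DMSO libraries, while the ratio to *Mxd4* alone lay above them.

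**Figure D2:**
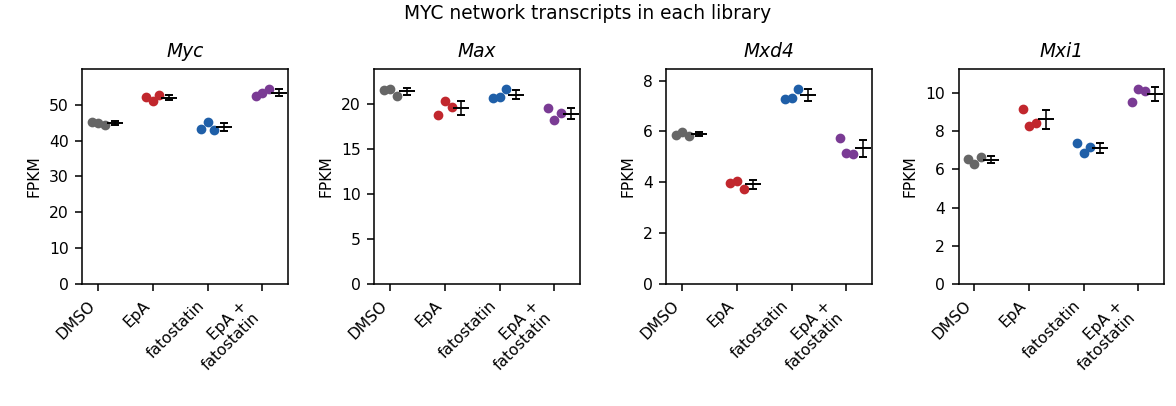
FPKM of *Myc*, *Max*, *Mxd4*, and *Mxi1* in each of the 12 libraries (points) with the mean and SD of each group of 3 beside them (black); axes start at 0. *Myc* and *Mxi1* were higher and *Max* and *Mxd4* lower with EpA, and *Mxd4* was highest with fatostatin alone (7.29 to 7.68 FPKM).

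Between groups, *Myc* moved with the nucleolar genes. In both comparisons that add EpA, *Myc* rose (log2 fold change 0.21 without and 0.29 with fatostatin), and the median of the 48 genes outside the MYC network was 0.22 and 0.20. In both that add fatostatin, *Myc* was not called (-0.04 and 0.04; limma adjusted p = 0.388 and 0.308), and the median of the 48 was -0.01 and -0.02. Within groups this was not seen. With each group's mean removed, log2 *Myc* and the mean log2 level of the 48 genes had a Pearson's r of -0.34 and a Spearman's rho of -0.44 over the 12 libraries, and r was -0.40 without the 2 libraries farthest from the median of *Myc*. Leaving out 1 library moved r from -0.56 (without DMSO replicate 1) to -0.11 (without EpA replicate 2). Both measures come from the same libraries and share their scaling, and median-ratio scaling gave an r of -0.13. With 3 libraries per group, this is a description only.

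Among other genes of the MYC and MAX network, 8 of 9 listed were tested, and 2 were called higher and 1 lower in EpA-Th9 cells, against 14.3% and 13.1% of all genes, with a median log2 fold change of -0.07. With both compounds against fatostatin, 2 were called higher and 1 lower (16.2% and 13.3% of all genes), with a median of 0.06, and with both against DMSO 4 and 1 (19.7% and 15.8%), with a median of 0.14. The highest was *Mycn*, the MYC paralog of neural tissue, which was weakly expressed and had 0.331 ± 0.114 FPKM (SD, n = 3) with DMSO and 1.01 ± 0.235 FPKM with EpA, a log2 fold change of 1.38 (limma adjusted p = 0.000482). The lowest was *Mxd3*, another MAX-binding repressor, which had 12.9 ± 1.48 FPKM with DMSO and 9.61 ± 0.721 FPKM with EpA and fell by 0.42 (limma adjusted p = 0.00204) on the log2 scale. *Mxd3* was also lower with fatostatin alone, at 9.97 ± 0.331 FPKM with a log2 fold change of -0.36 (limma adjusted p = 0.00902), whereas *Mxd4* was higher there.

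To show the sequences at which MYC and MAX can pair, the promoters of the 52 genes were searched for CACGTG, which reads the same on both strands. RefSeq promoter windows of GRCm38.p6 (250 bases before to 50 bases after the transcription start) were matched for 46 of the 52 genes, with 57 windows in all. The genes without a window were *Myc*, *Npm1*, *Fbl*, *Rrp12*, *Bop1*, and *Rrs1*. CACGTG was found in the windows of 12 of the 46 genes (26.1%), against 11.5% of 10043 tested genes with a window. By window, it was found in 12 of the 57 (21.1%), against 9.8% of the windows of tested genes and 7.15% of all 32851 windows. Counted from the first transcribed base as 1, with the base before it as -1, the motif began at -219 in *Mxd4*, -215 and -48 in *Rrn3*, -60 in *Nop2*, -3 in *Max*, 3 in *Pes1*, 16 in *Utp4*, 18 in *Wdr43*, 25 in *Tsr1*, 29 in *Ltv1*, 38 in *Pno1* and *Utp20*, and 41 in *Mybbp1a*. The motif is shown in capitals with up to 12 bases of the window on each side, 5′ to 3′ on the strand of the gene, for *Max* and *Mxd4*, which bind or compete with MYC, and for 3 genes whose values are given in every group.
Max, chr12:76962234-76962263, minus strand: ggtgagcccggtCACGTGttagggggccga
Mxd4, chr5:34187912-34187941, minus strand: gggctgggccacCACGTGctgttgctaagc
Rrn3 (-215), chr16:13780472-13780501, plus strand: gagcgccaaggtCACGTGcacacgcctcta
Rrn3 (-48), chr16:13780639-13780668, plus strand: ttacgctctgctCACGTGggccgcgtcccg
Utp20, chr10:88826765-88826789, minus strand: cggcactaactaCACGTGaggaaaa
Pno1, chr11:17211540-17211564, minus strand: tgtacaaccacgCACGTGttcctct

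A match of these letters is a description and does not show that a factor was bound. The median log2 fold change in EpA against DMSO was 0.24 for the 12 genes with the motif (-0.58 for *Mxd4* to 0.34 for *Pno1*) and 0.21 for the 34 genes with a window and no match (-0.05 for *Ubtf* to 0.45 for *Nop16*). The ranges overlapped widely, and *Max* and *Mxd4*, which fell, both held the motif.

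Of the 6 genes for transcription by RNA polymerase I, 4 were called higher with EpA and 2 were not called. *Rrn3* encodes the initiation factor that recruits the polymerase to the rDNA promoter. It had 22.2, 22.5, and 21.9 FPKM with DMSO, 25.9, 25.9, and 26.6 FPKM with EpA, 25.5, 24, and 24.7 FPKM with fatostatin, and 28.6, 29.3, and 28.4 FPKM with both, and its log2 fold change with EpA was 0.23 (limma adjusted p = 4.79e-05, SE 0.0254). The 4 groups rose in that order of DMSO, fatostatin, EpA, and both, with no overlap between them. *Ubtf* encodes the architectural factor of the rDNA promoter and was the most abundant of the 6 per kilobase. It had 51.4, 50.2, and 50.01 FPKM with DMSO, 48.2, 50.2, and 47.7 FPKM with EpA, 48.5, 50.3, and 48.7 FPKM with fatostatin, and 47.6, 45.9, and 46.5 FPKM with both. Its log2 fold change with EpA was -0.05 (limma adjusted p = 0.138, SE 0.0245), with a 95% interval of -0.11 to 0.00, and the DMSO and EpA libraries overlapped. It was the only one of the 48 genes with a negative log2 fold change in this comparison.

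The polymerase subunits lay between these. *Polr1a*, the largest catalytic subunit, had 10.6, 9.92, and 10.4 FPKM with DMSO, 11.98, 12, and 12.1 FPKM with EpA, 11.1, 10.6, and 10.6 FPKM with fatostatin, and 12.6, 11.9, and 11.6 FPKM with both. *Polr1b*, the other subunit of the active center, had 12.7, 12.5, and 13.03 FPKM with DMSO, 14.5, 14.3, and 13.9 FPKM with EpA, 13.5, 12.5, and 12.8 FPKM with fatostatin, and 14.4, 14.04, and 14.3 FPKM with both. Both rose with EpA, *Polr1a* by a log2 fold change of 0.23 (limma adjusted p = 0.000751, SE 0.0358) and *Polr1b* by 0.16 (limma adjusted p = 0.00314, SE 0.0321). *Polr1c*, which RNA polymerase III shares, had 34.2, 32.8, and 34.1 FPKM with DMSO, 38.9, 39.7, and 37.5 FPKM with EpA, 32.6, 31.6, and 33.9 FPKM with fatostatin, and 36.4, 35.1, and 36.2 FPKM with both, and rose with EpA by 0.20 (limma adjusted p = 0.000701, SE 0.0314) on the log2 scale. *Polr1e* had 7.68, 8.30, and 7.53 FPKM with DMSO, 8.55, 8.95, and 8.13 FPKM with EpA, 7.76, 7.96, and 7.81 FPKM with fatostatin, and 9.15, 8.97, and 8.90 FPKM with both. Its DMSO and EpA libraries overlapped, and its log2 fold change of 0.12 (limma adjusted p = 0.0528, SE 0.043) was not called. Of 9 other subunits and factors of RNA polymerase I, 1 was called higher with EpA and 0 lower, against 14.3% and 13.1% of all genes, and 3 had an unadjusted p below 0.05. Their median log2 fold change was 0.03. With both compounds against fatostatin, 3 were called higher and 1 lower (16.2% and 13.3% of all genes), with a median of 0.04, and with both against DMSO 4 and 1 (19.7% and 15.8%), with a median of 0.10. The highest of these 9, *Polr1d*, had 34.7 ± 3.02 FPKM (SD, n = 3) with DMSO and 41.1 ± 4.58 FPKM with EpA, a log2 fold change of 0.24 (limma adjusted p = 0.0668). The lowest, *Taf1c* of the promoter selectivity factor, had 4.26 ± 0.0566 and 4.04 ± 0.0984 FPKM, a log2 fold change of -0.08 (limma adjusted p = 0.424).

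All 5 nucleolar factors were called higher with EpA, with a median log2 fold change of 0.28. *Npm1* (nucleophosmin, a histone chaperone and scaffold of the granular nucleolus) was the most abundant of the 52 genes per kilobase and had 784, 757, and 789.9 FPKM with DMSO and 961, 964, and 981 FPKM with EpA. It had 748, 749.6, and 766 FPKM with fatostatin and 898, 903, and 863 FPKM with both, so that the group with both compounds lay between EpA and the groups without EpA, with no overlap. *Ncl* (nucleolin) had 209.5, 215, and 214 FPKM with DMSO, 272, 270.4, and 266 FPKM with EpA, 214, 209.5, and 206 FPKM with fatostatin, and 261, 249.6, and 249.8 FPKM with both, in the same order. Their log2 fold changes with EpA were 0.32 (limma adjusted p = 1.99e-06, SE 0.0224) and 0.34 (limma adjusted p = 8.17e-07, SE 0.0215). The smallest change in this class was that of the RNA helicase *Ddx21*, which had 82.1, 84.1, and 82.5 FPKM with DMSO and 93.8, 92.4, and 93.6 FPKM with EpA, a log2 fold change of 0.17 (limma adjusted p = 0.000726, SE 0.0269). It had 84.9, 81.9, and 80.8 FPKM with fatostatin and 96.8, 92.3, and 89.9 FPKM with both. *Mybbp1a* and *Nolc1* lay between, at 0.28 and 0.25.

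All 3 box C/D snoRNP proteins were called higher with EpA. *Fbl* (fibrillarin, the methyltransferase) had 65.9, 63.1, and 62.03 FPKM with DMSO, 69.2, 71.4, and 70.5 FPKM with EpA, 63.4, 63.5, and 62.2 FPKM with fatostatin, and 67.2, 71.05, and 71 FPKM with both, and its log2 fold change with EpA was 0.14 (limma adjusted p = 0.00241, SE 0.0275). The scaffold proteins *Nop58* and *Nop56* were the highest and the lowest of the 3. *Nop58* had 21.5, 21.6, and 21.3 FPKM with DMSO and 25.4, 25.97, and 25.6 FPKM with EpA (0.25 (limma adjusted p = 1.02e-05, SE 0.0226) on the log2 scale), and 22.7, 23.2, and 23.03 FPKM with fatostatin and 24.8, 25.3, and 24.01 FPKM with both. *Nop56* had 88.7, 85.4, and 85.7 FPKM with DMSO and 95.3, 94.9, and 93.2 FPKM with EpA (0.12 (limma adjusted p = 0.000726, SE 0.0199)), and 84.7, 87.3, and 85.5 FPKM with fatostatin and 89.8, 91.4, and 91.9 FPKM with both. The libraries of both genes with EpA, alone or with fatostatin, lay above those without it. Of the box H/ACA proteins, 3 of 4 were called higher. *Dkc1* (dyskerin, the pseudouridine synthase) had 46.5, 45.6, and 45.3 FPKM with DMSO, 53.6, 54.4, and 52.7 FPKM with EpA, 46.3, 46.9, and 47.1 FPKM with fatostatin, and 52.2, 51.8, and 50.3 FPKM with both, with a log2 fold change of 0.23 (limma adjusted p = 1.02e-05, SE 0.02) with EpA. *Nhp2* was the highest, with 104, 96.9, and 100.3 FPKM with DMSO and 121, 123, and 118 FPKM with EpA (0.27 (limma adjusted p = 0.000103, SE 0.0319)). It had 88, 91.5, and 93.6 FPKM with fatostatin and 114, 111, and 117 FPKM with both, so that its fatostatin libraries lay lowest. *Gar1* was the lowest, with 53.2, 53.8, and 55.95 and 57.4, 58.4, and 59.4 FPKM. Its libraries did not overlap, but its log2 fold change of 0.10 (limma adjusted p = 0.121, SE 0.0458) was not called. With fatostatin it had 49.1, 51.5, and 55.8 FPKM and with both compounds 58.5, 59.8, and 64.3 FPKM.

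In the small-subunit processome, 8 of 9 genes were called higher with EpA, with a median log2 fold change of 0.17. *Utp20*, a large scaffold of the processome, had 10.7, 10.8, and 10.4 FPKM with DMSO, 13.3, 13.9, and 13.04 FPKM with EpA, 14.03, 12.8, and 12.7 FPKM with fatostatin, and 17.1, 15.8, and 15.1 FPKM with both. It was higher with each compound and highest with both, and only the EpA and fatostatin groups overlapped. Its log2 fold change with EpA was 0.33 (limma adjusted p = 0.000552, SE 0.0496). *Utp15*, a WD-repeat protein of the t-UTP subcomplex, had 12.7, 13.6, and 13.5 FPKM with DMSO and 14.1, 13.6, and 13.6 FPKM with EpA, and was not called at 0.05 (limma adjusted p = 0.225, SE 0.0299). It had 12.8, 12.8, and 12.7 FPKM with fatostatin and 13.5, 13.2, and 13.4 FPKM with both. *Utp4* and *Wdr43*, of the same subcomplex, were called higher at 0.29 and 0.17. *Heatr1* was called at 0.16 (limma adjusted p = 0.0129), a call lost without DMSO replicate 1 or EpA replicate 1 (limma adjusted p = 0.053 and 0.055). All 6 late 40S factors were called higher. *Rrp12*, an export factor, had 20.9, 20.5, and 20.9 FPKM with DMSO and 25.4, 26.6, and 27.1 FPKM with EpA (0.34 (limma adjusted p = 2.55e-05, SE 0.0344)), and 18.4, 19.1, and 18.9 FPKM with fatostatin and 22.9, 24, and 25.1 FPKM with both. *Bysl* (bystin) had 14.97, 15.1, and 15.6 FPKM with DMSO and 16.7, 16.3, and 16.9 FPKM with EpA (0.13 (limma adjusted p = 0.00649, SE 0.029)), and 14.7, 14.6, and 13.8 FPKM with fatostatin and 16.5, 16.99, and 16.9 FPKM with both. Both genes were lowest with fatostatin alone. The endonuclease *Nob1* and its partner *Pno1* were called at 0.20 and 0.34. About 32.3% of the exon bases of *Tsr1*, called at 0.25, overlap exons of *Srr* on the opposite strand, and whether the counting used strand is not given in the sources used here.

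Of the 15 factors of 60S assembly, 13 were called higher with EpA and 2 were not called. *Nop16*, a known MYC target, had the highest log2 fold change of the 52 genes, smaller in size than the fall of *Mxd4*. It had 33.05, 33.6, and 31.7 FPKM with DMSO and 42.4, 45.4, and 46.3 FPKM with EpA, a log2 fold change of 0.45 (limma adjusted p = 1.7e-05, SE 0.0422) or 1.36-fold. It had 33.3, 36.4, and 33.6 FPKM with fatostatin and 42.2, 44.7, and 44.5 FPKM with both. *Rrp1b* had the smallest change of the class, with 13.8, 14.1, and 14.2 FPKM with DMSO and 14.4, 14.1, and 14.1 FPKM with EpA, and was not called at 0.02 (limma adjusted p = 0.692, SE 0.0278), with a 95% interval of -0.04 to 0.08. It had 13.8, 13.6, and 13.2 FPKM with fatostatin and 14.9, 14, and 14.6 FPKM with both. *Urb2* was not called either (0.08, 95% interval -0.02 to 0.18). The 3 proteins of the PeBoW complex, which processes the precursor of the large rRNAs, were called higher at 0.18 (*Pes1*), 0.17 (*Wdr12*), and 0.14 (*Bop1*). The call of *Bop1* was lost without DMSO replicate 2 (limma adjusted p = 0.0657) or EpA replicate 2 (limma adjusted p = 0.0568). *Ebna1bp2* (0.34), *Nip7* (0.28), *Mrto4* (0.26), the methyltransferases *Nop2* (0.24) and *Ftsj3* (0.21), the paired export factors *Noc2l* (0.22) and *Noc3l* (0.24), *Gnl3* (nucleostemin, 0.21), and *Rrs1* (0.13) were also called higher.

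**Figure D3:**
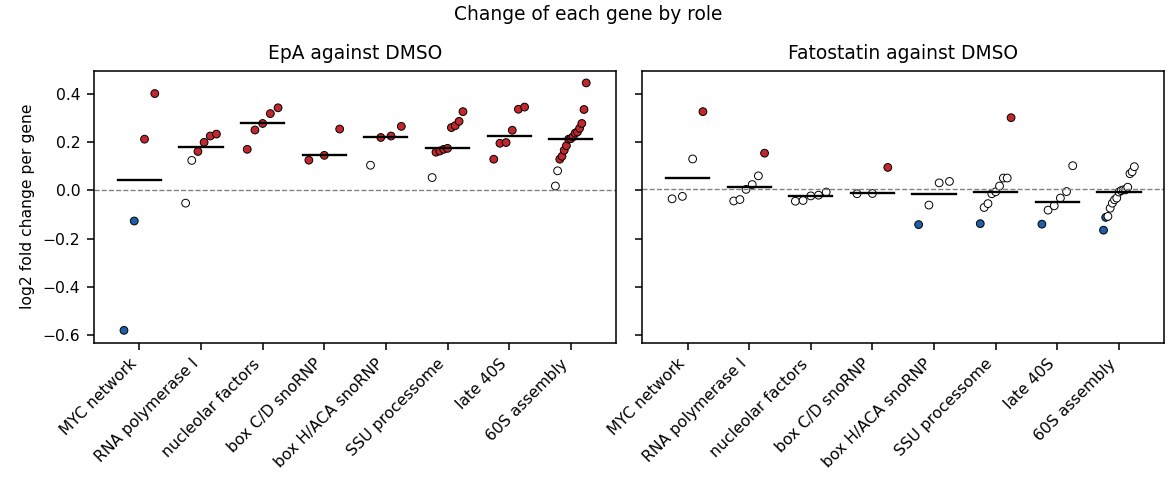
log2 fold change of each of the 52 genes (points) by role, for EpA against DMSO (left) and fatostatin against DMSO (right). Red points were called higher, blue points lower, and open points not called; black bars are class medians and the dashed line is the median of all 13733 genes tested. With EpA each class outside the MYC network has a median of 0.145 to 0.277, and with fatostatin the class medians lie between -0.048 and 0.052, the latter that of the MYC network.

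Fatostatin alone left the list as a whole near the control level. Of the 52 genes, 4 were called higher and 5 lower, against 7.69% and 6.31% of all genes tested, and the median log2 fold change was -0.01. The 3 highest were *Mxd4* at 0.33 (limma adjusted p = 0.00114, SE 0.0501), *Utp20* at 0.30 (limma adjusted p = 0.00179, SE 0.0496), and *Rrn3* at 0.15 (limma adjusted p = 0.00176, SE 0.0254). The fourth called higher was *Nop58* at 0.10 (limma adjusted p = 0.0156, SE 0.0226). The 3 lowest were *Bop1*, which had 33.7, 37.6, and 35.95 FPKM against 40.8, 38.9, and 40.4 FPKM with DMSO (-0.17 (limma adjusted p = 0.0133, SE 0.0378)), *Nhp2* (-0.14 (limma adjusted p = 0.0119, SE 0.0319)), and *Rrp12* (-0.14 (limma adjusted p = 0.0186, SE 0.0344)). *Noc4l* (-0.14) and *Noc2l* (-0.11) were also called lower. In the groups with EpA, *Bop1* had 43.6, 44.9, and 44.1 FPKM with EpA alone and 39.4, 41.8, and 41.7 FPKM with both. Across the 52 genes, the log2 fold change with fatostatin had a Spearman's rho of -0.49 with the GC content of the longest transcript and 0.36 with exon length, against -0.09 and 0.09 over 13728 genes tested. With mean FPKM the rho was -0.35 across the 52 genes and -0.15 over the 13728. With a correction for GC content, 3 genes were called higher and 4 lower, and *Nop58* and *Noc2l* were no longer called, at a log2 fold change of 0.07 and -0.09 (limma adjusted p = 0.0654 and 0.0511). With a correction for GC content and length, 3 were called higher and 5 lower, and *Nop58* and *Noc2l* stood at 0.05 and -0.07 (limma adjusted p = 0.397 and 0.165). *Nop58* was also lost without DMSO replicate 3 or fatostatin replicate 2, and without DMSO replicate 1 *Bop1* (limma adjusted p = 0.0544) and *Nhp2* (limma adjusted p = 0.0505) were lost. The call of *Rrp12* was lost without DMSO replicate 1, DMSO replicate 3, or fatostatin replicate 1 (limma adjusted p = 0.0617, 0.0601, and 0.0691).

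The same agent was then compared in cells that also received EpA. Against EpA alone, both compounds together gave 4 genes called higher and 6 lower, against 9.22% and 6.79% of all genes, with a median log2 fold change of -0.02. The 3 highest were *Mxd4* at 0.43 (limma adjusted p = 0.000137, SE 0.0501), *Utp20* at 0.25 (limma adjusted p = 0.00518, SE 0.0496), and *Mxi1* at 0.21 (limma adjusted p = 0.0116, SE 0.0471), and *Rrn3* was called at 0.14. The 3 lowest were *Rrp12* at -0.14 (limma adjusted p = 0.0191, SE 0.0344), *Pno1* at -0.14 (limma adjusted p = 0.0077, SE 0.0288), and *Npm1* at -0.12 (limma adjusted p = 0.00291, SE 0.0224). *Pno1* had 53.05, 52.9, and 55.98 FPKM with EpA and 48.8, 49.1, and 49.3 FPKM with both, above its 43.04, 43.03, and 42.1 FPKM with DMSO and 40.1, 42.7, and 39.97 FPKM with fatostatin. *Noc2l* (-0.12), *Polr1c* (-0.11), and *Ncl* (-0.09) were also called lower. The calls of *Polr1c*, *Ncl*, and *Rrp12* were lost in 10, 5, and 5 of the alternative settings, with limma adjusted p of at most 0.178, 0.0766, and 0.0833. With median-ratio scaling, which shifted the median of the list to -0.04, 4 were called higher and 12 lower. This scaling also shifted the median of all genes tested, from 0.015 to -0.002. The shares of all genes called under it are not given here. This comparison shares no library with that of fatostatin against DMSO, and 5 genes were called in both, all in the same direction: *Mxd4*, *Rrn3*, and *Utp20* higher, and *Rrp12* and *Noc2l* lower. The last pair, *Rrp12* and *Noc2l*, lost their calls under at least 1 alternative in each comparison. The genes called in both are 55.6% of the 9 and 50% of the 10 genes called. Among all genes tested, the 1280 genes called in both were 66.6% and 58.2% of those called.

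The rise with EpA was also present in cells that received fatostatin. In cells with both compounds against fatostatin alone, 47 of the 52 genes were called higher and 3 lower, against 16.2% and 13.3% of all genes, with a median log2 fold change of 0.20. The libraries did not overlap for any of the 52 genes, against 41.4% of all genes. The 3 highest were *Mxi1* at 0.48 (limma adjusted p = 2.03e-05, SE 0.0471), *Rrp12* at 0.35 (limma adjusted p = 2.06e-05, SE 0.0344), and *Nop16* at 0.35 (limma adjusted p = 9.8e-05, SE 0.0422). The 3 lowest were *Mxd4* at -0.47 (limma adjusted p = 3.49e-05, SE 0.0501), *Max* at -0.15 (limma adjusted p = 0.006, SE 0.0344), and *Ubtf* at -0.08 (limma adjusted p = 0.0374, SE 0.0245), which were also the 3 called lower. *Ubtf* lost its call in 7 of the alternative settings, with a limma adjusted p of at most 0.133. *Utp15* and *Urb2* were not called here either (0.07 and 0.11; limma adjusted p = 0.132 and 0.0958). Across the 52 genes, the log2 fold change had a Spearman's rho of -0.42 with exon length and 0.31 with mean FPKM. Over 13728 genes tested these were 0.01 and -0.03. With a correction for GC content and length, 46 of the 52 were called higher and 3 lower. No library is shared with EpA against DMSO, and all 46 genes called there were called here in the same direction. Among all genes tested, 2772 of the 3759 called there (73.7%) were called here, 2769 of them in the same direction. All 52 genes had the same sign in both comparisons, as did 10528 of the 13733 genes tested. Pearson's r was 0.92 and Spearman's rho 0.75 across the 52 genes, and 0.79 and 0.71 across the 48 outside the MYC network. Across all 13733 genes they were 0.48 and 0.62. The 13733 genes reach down to a mean of 0.1 FPKM, whereas each of the 52 had at least 1095 reads in every library. The part of expression level in these differences was not tested. Genes are not independent replicates.

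**Figure D4:**
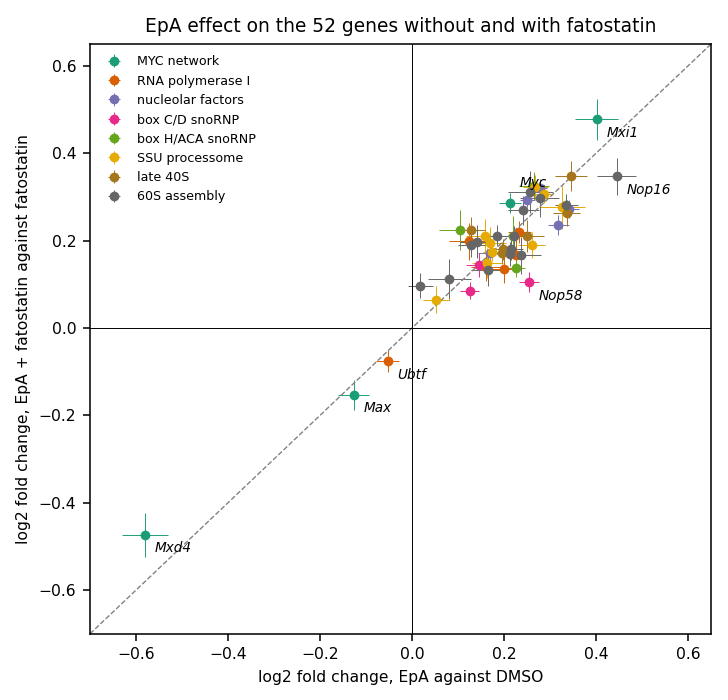
log2 fold change of the 52 genes with EpA, without fatostatin (x axis, EpA against DMSO) and with it (y axis, both compounds against fatostatin), with SE bars; the dashed line marks equal change. Colors give the role, and the points lie along the line, with *Mxd4*, *Max*, and *Ubtf* below 0 on both axes and Pearson's r at 0.92.

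A test of the difference between these effects of EpA called 0 of the 52 genes by limma, and 0 by voom of limma on the recovered reads, against 0.0437% of all genes. At an unadjusted p below 0.05 there were 6 of the 52 and 1083 of the 13733 genes. The 3 highest differences, with fatostatin minus without, were *Gar1* at 0.12 (limma adjusted p = 0.728, SE 0.0647), *Mxd4* at 0.11 (limma adjusted p = 0.794, SE 0.0709), and *Bysl* at 0.10 (limma adjusted p = 0.604, SE 0.0411). The 3 lowest were *Nop58* at -0.15 (limma adjusted p = 0.272, SE 0.0319), *Nop16* at -0.10 (limma adjusted p = 0.765, SE 0.0597), and *Dkc1* at -0.09 (limma adjusted p = 0.44, SE 0.0283). For *Myc* the difference was 0.07, with a 95% interval of 0.00 to 0.15. For *Npm1* it was -0.08 (-0.15 to -0.01) and for *Ncl* -0.07 (-0.14 to -0.00), with limma adjusted p of 0.546 and 0.609. A p above the threshold does not show that the effects were equal.

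Both compounds together against DMSO gave 45 genes called higher and 3 lower, against 19.7% and 15.8% of all genes, with a median log2 fold change of 0.19. This comparison shares libraries with those above. The 3 highest were *Mxi1* at 0.61 (limma adjusted p = 1.98e-06, SE 0.0471), *Utp20* at 0.58 (limma adjusted p = 4.36e-06, SE 0.0496), and *Nop16* at 0.42 (limma adjusted p = 1.61e-05, SE 0.0422), and *Rrn3* followed at 0.37. *Mxi1* was the only one of the 52 genes past 1.5-fold, a size that 5.64% of all genes reached with an adjusted p below 0.05. The 3 lowest were *Max* at -0.18 (limma adjusted p = 0.00183, SE 0.0344), *Mxd4* at -0.15 (limma adjusted p = 0.0408, SE 0.0501), and *Ubtf* at -0.11 (limma adjusted p = 0.0036, SE 0.0245). The call of *Mxd4* was lost in 9 alternative settings, among them TPM (limma adjusted p = 0.0683) and the omission of any 1 DMSO library (0.0732 to 0.108 as limma adjusted p). *Utp15*, *Rrp1b*, *Bop1*, and *Urb2* were not called.

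With EpA against DMSO, other assembly factors were called higher as well, and few or none lower. Of 46 other small-subunit factors, 25 were called higher and 0 lower with EpA (29 had an unadjusted p below 0.05), and their median log2 fold change was 0.12. The highest was the methyltransferase *Dimt1*, with 3.46 ± 0.0742 FPKM (SD, n = 3) with DMSO and 4.17 ± 0.352 FPKM with EpA and a log2 fold change of 0.26 (limma adjusted p = 0.0205). The lowest was the helicase *Dhx37*, at -0.06 (limma adjusted p = 0.355). Of 51 other large-subunit factors, 33 were called higher and 1 lower, with a median of 0.17. Of all genes tested, 14.3% were called higher and 13.1% lower. The highest was *Npm3*, a relative of *Npm1*, with 58.05 ± 0.621 FPKM with DMSO and 74.3 ± 1.36 FPKM with EpA (0.36 (limma adjusted p = 8.86e-05)). The 1 called lower was *Nop53*, a late 60S factor, with 58.5 ± 1.01 and 53.7 ± 0.234 FPKM (-0.12 (limma adjusted p = 0.00153)). With fatostatin alone, 2 of the 46 small-subunit factors were called higher and 8 lower, against 7.69% and 6.31% of all genes. Of the 51 large-subunit factors, 3 were called higher and 4 lower there. With both compounds against fatostatin, 29 and 31 of these lists were called higher and 0 and 1 lower, against 16.2% and 13.3% of all genes. Of 29 other known MYC targets of metabolism, growth, and the cell cycle, 23 were called higher and 0 lower with EpA, with a median of 0.19, and 23 and 0 with both compounds against fatostatin (16.2% and 13.3% of all genes), with a median of 0.17. With fatostatin alone, 2 were called higher and 7 lower, against 7.69% and 6.31% of all genes, with a median of -0.05. With both against EpA 5 were called higher and 6 lower, against 9.22% and 6.79%, with a median of -0.05, and with both against DMSO 18 and 4, against 19.7% and 15.8%, with a median of 0.15. The highest was *Odc1* (ornithine decarboxylase of polyamine synthesis), with 142 ± 1 FPKM with DMSO, 200 ± 1.77 FPKM with EpA, and 231 ± 3.91 FPKM with both, a log2 fold change of 0.49 (limma adjusted p = 7.18e-09) with EpA. The lowest was the arginine transporter *Slc7a1*, at -0.04 (limma adjusted p = 0.329).

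The proteins of the ribosome itself did not follow the assembly factors as a group. Of 85 tested genes for cytosolic ribosomal proteins, 3 were called higher and 16 lower in EpA-Th9 cells, against 14.3% and 13.1% of all genes, and the median log2 fold change was -0.04. With both compounds against fatostatin, 3 were called higher and 18 lower, against 16.2% and 13.3% of all genes, with a median of -0.05. These genes have many near-identical pseudogenes, and how the counting divided their reads is not given in the sources used here. Of 77 tested genes for mitochondrial ribosomal proteins, 32 were called higher and 0 lower with EpA, with a median of 0.11, and 30 were called higher and 0 lower with both compounds against fatostatin, with a median of 0.10, beside the same shares of all genes. With fatostatin alone, 0 of the 77 were called higher and 5 lower, against 7.69% and 6.31% of all genes. With both against EpA these counts were 0 and 10, against 9.22% and 6.79%. The median was -0.07 in both of these comparisons.

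**Figure D5:**
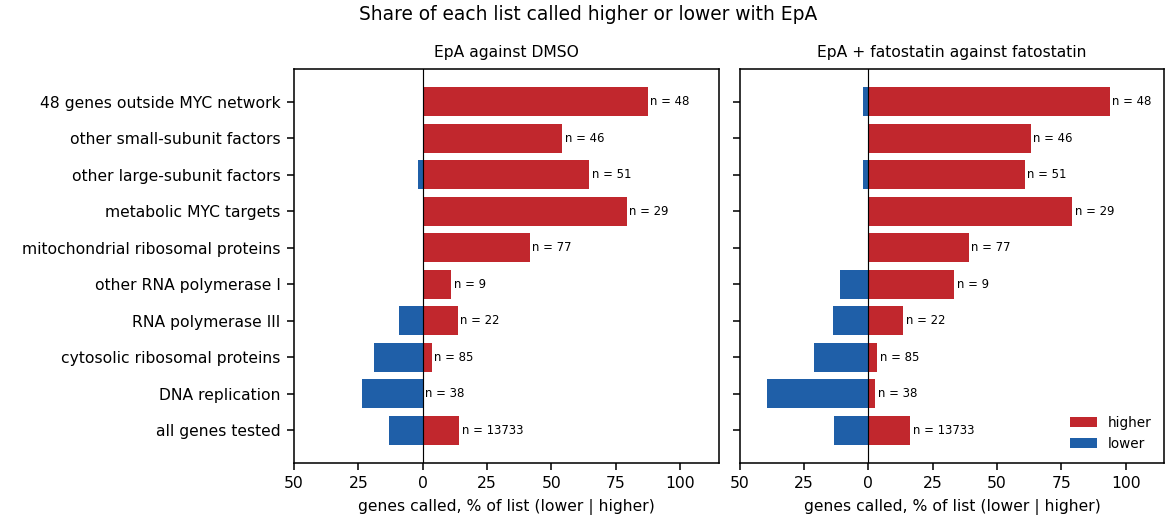
Share of each list called higher (red, to the right) or lower (blue, to the left) by limma, in percent of the genes tested (n beside each bar), for EpA against DMSO (left) and both compounds against fatostatin (right). Of the 48 genes outside the MYC network, 87.5% and 93.8% were called higher, against 14.3% and 16.2% of all genes. The lists were drawn up with earlier results of these data known, so their order in the plot is a description.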

How the data were processed

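RNA-seq was measured in 12 libraries. Per the methods of the study and the processing notes of the submitters, Trim Galore was used for trimming, HISAT2 for alignment to GRCm38, and featureCounts for counting, and the authors deposited the result as FPKM. The methods give these tools by release series only, and the annotation release is not given in the sources used here. Of 32352 lines, 301 repeated a gene with equal values and were dropped. With GENCODE M21 exon lengths, 98.4% to 98.6% of the values were whole reads within 0.05.

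log2(FPKM + 0.1) was fitted by limma 3.58.1 in R 4.3.3 for genes whose mean over the libraries reached 0.1 FPKM, with 4 group means, an intensity trend, and 8 residual degrees of freedom. p-values are two-sided and Benjamini-Hochberg adjusted over 13733 genes. The 52 genes, their role classes, and the other lists were chosen with earlier results of these data known. Values in every library are given for the MYC network, RNA polymerase I, *Ncl*, *Npm1*, *Fbl*, *Dkc1*, and the highest and lowest gene of each class, and the 3 highest and 3 lowest genes for each further comparison. The alternatives changed the pseudocount, the filter, the scaling, the groups fitted, the empirical Bayes step, the block, the fold threshold, and the libraries. voom and the corrections for GC content and length were chosen after seeing the data. Markers and promoter windows (RefSeq, GRCm38.p6) are a description.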

Additional observations from a re-analysis of the deposited data

How the results depend on the processing

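Of 163 calls of a gene in a comparison, 142 were kept in all alternatives other than the fold threshold and 21 were lost in at least 1 of them, with 0 reversed. The number called for each comparison stayed within 1.5 times the reported one, with 2 exceptions. A fold threshold of 1.5 left 0 genes for EpA, 0 for fatostatin, 1 for both compounds against DMSO, 0 for both against EpA, and 0 for both against fatostatin. Median-ratio scaling gave 16 in place of 10 for both against EpA. Leaving out 1 library gave 44 to 47 genes for EpA, 7 to 10 for fatostatin, 43 to 47 for both against DMSO, 7 to 9 for both against EpA, 47 to 49 for both against fatostatin, and 0 to 0 for the difference of the EpA effects. The difference for *Max*, which was not called (log2 -0.03), changed sign to 0.0020 without EpA replicate 2 and ranged from -0.0551 (without EpA replicate 1) to that value with 1 library left out. The cause was not tested. No pairing of the samples by the replicate numbers in the labels was seen in the values. The deviations of libraries with the same number correlated at -0.088 to 0.113 over 18 pairs, and those with different numbers at -0.122 to 0.095 over 36. This does not show whether samples with the same number share a mouse or culture. With a replicate block, 48, 10, 46, 10, 50, and 0 genes were called in the 6 comparisons in the order used above. Depth did not limit the detection of these genes, which had at least 1095 reads each, and with 3 libraries a group smaller changes could be missed.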

Other observations

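The machinery of RNA polymerase III, which transcribes the 5S rRNA and tRNAs, was called at shares near those of all genes with EpA. Of 22 genes tested, 3 were called higher and 2 lower in EpA-Th9 cells (median log2 fold change 0.02), against 14.3% and 13.1% of all genes, and 3 were called higher and 3 lower with both compounds against fatostatin, against 16.2% and 13.3%, with a median of 0.03. The highest with EpA was *Crcp*, with 17.5 ± 1.07 FPKM (SD, n = 3) with DMSO and 20.5 ± 0.886 FPKM with EpA, a log2 fold change of 0.22 (limma adjusted p = 0.00231). The lowest was *Brf1*, a subunit of the initiation factor TFIIIB, with 6.68 ± 0.117 and 5.72 ± 0.0924 FPKM, a log2 fold change of -0.22 (limma adjusted p = 0.00373).

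The genes of DNA replication that were called were mostly lower. Of 38 tested, 0 were called higher and 9 lower with EpA against DMSO (12 had an unadjusted p below 0.05), 1 higher and 6 lower with fatostatin, and 1 higher and 26 lower with both compounds against DMSO. Of all genes, 13.1%, 6.31%, and 15.8% were called lower in these comparisons. The median log2 fold changes of the 38 in these comparisons, which share the DMSO libraries, were -0.03, -0.05, and -0.11. With both compounds against fatostatin, 1 was called higher and 15 lower, against 16.2% and 13.3% of all genes, with a median of -0.07, and with both against EpA 0 and 18, against 9.22% and 6.79%, with a median of -0.095. No gene of this list was called for the difference of the EpA effects by limma, and 7 had an unadjusted p below 0.05. The lowest with EpA was *Lig1* (DNA ligase), with 121 ± 0.828 FPKM with DMSO, 102 ± 2.91 FPKM with EpA, and 98.3 ± 1.21 FPKM with both.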
